A study of Mus musculus with 8 samples.

Results

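The TREM receptors (triggering receptors expressed on myeloid cells) and the adaptor proteins through which most of them signal were followed in CD11b+ cells of the neonatal mouse brain. The set holds 8 genes: the receptors Trem2, Trem1, Trem3, Treml4, Treml2 and Treml1, and the adaptors Tyrobp (also called DAP12) and Hcst (also called DAP10). Their probes were taken by gene name on the array, and they are 8 of the 22509 genes tested. All 15 probes that carry these names passed the filter on dim probes, which asked for a signal well above background on at least 4 of the 8 arrays.

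The LPS group consisted of 4 tubes of cells taken 24 h after lipopolysaccharide, a bacterial cell wall component that triggers systemic inflammation, and the saline group of 4 tubes taken 24 h after saline. All mice were male C57BL/6N animals aged 7 days with no genetic modification named, and each tube pooled the brains of 2 mice given the same injection. CD11b+ cells were separated on magnetic beads, a selection that takes microglia together with monocytes, neutrophils and macrophages of the brain's borders, and RNA of each tube was measured on 1 single-colour Agilent array. Dose and route are not given in the sources used here. The 4 tubes of a group were separate samples, so the spread below is between pools of mice, not between single mice.

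TREM receptors are cell surface proteins of the immunoglobulin superfamily. Most have a short tail with no signalling motif of their own and depend on DAP12, whose cytoplasmic immunoreceptor tyrosine-based activation motif (ITAM) is phosphorylated by Src family kinases and then recruits the kinase Syk. DAP10 carries a different tyrosine motif, which recruits phosphoinositide 3-kinase. In the brain, Trem2 and DAP12 are made by microglia and are needed for their uptake of debris and their response to lipids, whereas Trem1 is known from neutrophils and monocytes as an amplifier of inflammatory responses.

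Tyrosine motifs by which the adaptors signal lie, at least in part, within probes of these genes, and these probes are shown for that reason. The Tyrobp probe lies at chr7:31200651-31202378 on the plus strand of mm9, the build named in the array files. That interval is longer than the probe's 60 bases, so the probe joins separate blocks of the genome. Capitals mark the codons of a tyrosine motif of the form YxxL, a part of the ITAM. One of the Hcst probes, not the brightest one that gives the gene's value below, lies at chr7:31202840-31203140 on the minus strand of the same build. Its capitals mark the codons of the tyrosine motif YxNM, the binding site for phosphoinositide 3-kinase. Exon and UTR annotation of mm9 was not used here.
Tyrobp probe: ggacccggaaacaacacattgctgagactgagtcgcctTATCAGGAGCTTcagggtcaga
Hcst probe: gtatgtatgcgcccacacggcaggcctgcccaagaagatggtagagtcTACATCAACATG

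After LPS, Trem3, Treml2 and Treml4 were higher, with 4.13-fold, 2.99-fold and 2.43-fold signals. Trem2 and Treml1 were lower, at 0.773 and 0.766 of the saline signal, and the adaptors Tyrobp and Hcst did not pass the test. The brighter Trem1 probe did not pass it either, while its dimmer probe was higher. Thus 5 of the 8 genes passed, 3 higher and 2 lower. Of all genes tested 49.3% passed, 27.8% higher and 21.5% lower, so the share among the 8 is near that background. The LPS and saline arrays did not overlap for 4 of the 8 genes, against 44.7% of all genes. The median change of the 8 genes was 0.07 on the log2 scale and that of all genes 0.02.

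Levels below are log2 processed signals minus the 75th percentile of the same array, so that 0 is the signal of a probe at that percentile and a difference of 1 is a doubling. Each gene is given by its brightest probe. Changes are LPS minus saline with their standard error, from limma fitted to all 22509 genes, with p-values adjusted by the Benjamini-Hochberg method over all of them and a threshold of 0.05. A hybridisation signal depends on the probe, so levels are compared between arrays and not between genes. In RNA of whole cell fractions, fewer cells of a type and less RNA per cell cannot be told apart, and this holds for every result below.

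**Figure D1:**
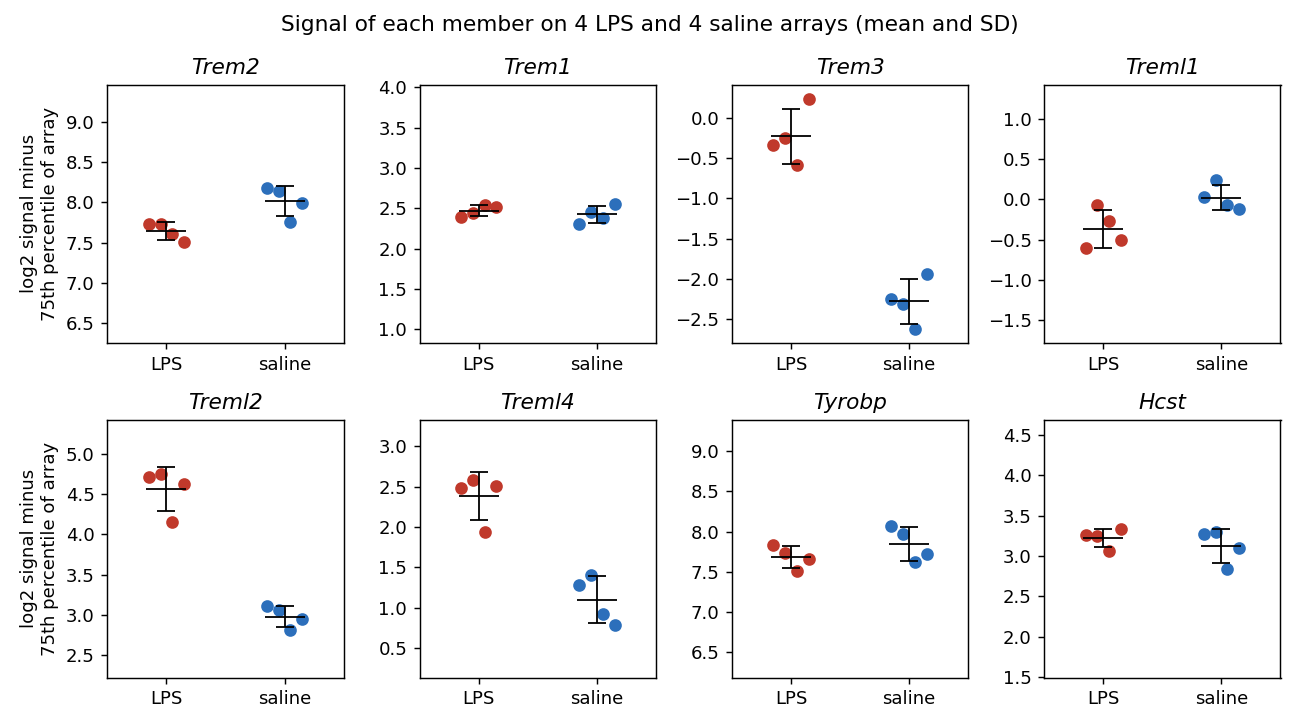
Log2 signal minus the array's 75th percentile (y axis) of the 8 genes on the 4 LPS arrays (red) and the 4 saline arrays (blue), with the mean and SD in black; each panel spans the same number of log2 units unless the values need more. The groups stand apart in Trem3, Treml2 and Treml4, lie close but apart in Trem2, and overlap in Trem1, Treml1, Tyrobp and Hcst.

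The share of probes well above background was 58.6% to 63.2% on LPS arrays and 61.9% to 66.0% on saline arrays, and no spot was saturated. All 10 microglial markers were well above background on every array, and so were all 9 monocyte markers. Among 13 neutrophil markers the exception was Ly6g, well above background on 2 of 4 saline arrays. LPS array 3 stood apart from the other LPS arrays. Its median absolute change over the changed genes was 0.38 on the log2 scale, against 0.62 to 0.71 on the other LPS arrays.

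Trem2, the microglial receptor for lipids and apolipoproteins, was lower after LPS. It measured 7.73, 7.74, 7.60 and 7.51 on the LPS arrays, against 8.17, 8.14, 7.76 and 7.99 on the saline arrays. Every LPS array lay below every saline array, with the highest LPS array close beneath the lowest saline array. Before scaling, the processed signals were 29331 to 34838 on LPS arrays and 43622 to 48682 on saline arrays. LPS arrays were dimmer in general, with 75th percentiles of 154 to 179 against 169 to 202 on saline arrays. Unscaled Tyrobp, which did not pass the test, was also apart, at 32600 to 35188 on LPS arrays and 37908 to 45258 on saline arrays. The change of Trem2 after scaling was -0.37 ± 0.11 (adjusted p = 0.0239, limma), and its scaled signal fell by 22.7%. This call was lost when arrays were scaled by their median (-0.16, adjusted p = 0.485), a scaling that moved the median change of all genes to 0.24. It was also lost without saline 1, saline 2, saline 4 or LPS 4, with adjusted p-values of 0.0574, 0.0610, 0.0531 and 0.0666. Trem2 has 1 probe on the array, at chr17:48491537-48491596 on the plus strand of mm9.

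Trem1, the amplifying receptor of neutrophils and monocytes, has probes that gave different answers. The brighter probe measured 2.39, 2.44, 2.54 and 2.52 on the LPS arrays, against 2.30, 2.46, 2.38 and 2.56 on the saline arrays. The groups overlapped fully, and the change was 0.05 ± 0.08 (adjusted p = 0.635, limma). The dimmer probe averaged -1.46 ± 0.32 on LPS arrays and -2.28 ± 0.31 on saline arrays (SD, n = 4 each). All its LPS arrays lay above its saline arrays after scaling, with a change of 0.82 ± 0.20 (adjusted p = 0.0110, limma over all 35494 probes). Its unscaled signals were low, at 44, 51, 74 and 74 on LPS arrays and 46, 32, 33 and 39 on saline arrays, and these overlapped.

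The end of the brighter Trem1 probe, at chr17:48385879-48385908 on the plus strand of mm9, is shown because it is repetitive. Capitals mark a run of 7 GTT triplets.
Trem1 probe, last bases: tGTTGTTGTTGTTGTTGTTGTTgtatttgg

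The whole brighter probe holds 12 GTT triplets and the dimmer Trem1 probe holds 1. Only 3 probes on the array hold at least 8, and the others are those of Fubp3 and Gm4146. Their changes were -0.17 and -0.16 and did not pass the test. Whether the repeat takes part in the signal of the brighter Trem1 probe was not tested.

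Trem3, an activating receptor of mouse macrophages that pairs with DAP12, had the largest increase among the 8 genes. It measured -0.33, -0.25, -0.58 and 0.24 on the LPS arrays, against -2.24, -2.31, -2.62 and -1.94 on the saline arrays. The LPS arrays all lay more than 1 log2 unit above the highest saline array. The change was 2.05 ± 0.20 (adjusted p = 0.000427, limma). Trem3 was dim, with processed signals of 120 to 190 on LPS arrays and 33 to 47 on saline arrays. Background correction with normexp and an offset of 50 gave a change of 1.20 (adjusted p = 0.000110, limma over probes), since an offset added to dim signals shrinks their ratio.

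Treml4, a receptor of splenic macrophages and some monocytes that binds dying cells, was higher after LPS. It measured 2.48, 2.59, 1.94 and 2.51 on the LPS arrays, against 1.28, 1.41, 0.92 and 0.78 on the saline arrays. The lowest LPS array was LPS 3, which still lay above every saline array. The change was 1.28 ± 0.19 (adjusted p = 0.00146, limma), and 1.43 without LPS 3. A second probe, far dimmer, changed by 1.03 ± 0.18 (adjusted p = 0.00264, limma over all probes). Its processed signals were only 12 to 15 on LPS arrays and 6 to 10 on saline arrays. With normexp its change was 0.24 (adjusted p = 0.0127, limma over probes).

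Treml2, a receptor of myeloid cells and B cells, was likewise higher. It measured 4.72, 4.75, 4.16 and 4.63 on the LPS arrays, against 3.11, 3.06, 2.81 and 2.95 on the saline arrays. Again LPS 3 was the lowest of its group and above every saline array. The change was 1.58 ± 0.14 (adjusted p = 0.000350, limma), and 1.72 without LPS 3. The second Treml2 probe changed less, by 0.72 ± 0.14 (adjusted p = 0.00375, limma over all probes). Its processed signals were 83 to 95 on LPS arrays and 56 to 70 on saline arrays.

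Treml1, a receptor stored in the alpha granules of platelets, was lower after LPS by a small margin. It measured -0.60, -0.08, -0.27 and -0.50 on the LPS arrays, against 0.04, 0.24, -0.06 and -0.12 on the saline arrays. The highest LPS array lay within the range of the saline arrays. The change was -0.38 ± 0.13 (adjusted p = 0.0441, limma), and 12 of 22 alternative settings lost the call. Its second probe changed by -0.17 ± 0.10 (adjusted p = 0.195, limma over all probes). The change of that probe was 0.05 with array medians, 0.002 with quantile normalization and -0.008 with normexp, none past the test. With the 75th percentile over probes bright on every array it was -0.32 (adjusted p = 0.0349, limma over probes).

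Marker genes of other cells moved alongside these receptors. Of the 9 monocyte markers 7 were higher after LPS and none lower, and their summed signal, in multiples of the array's 75th percentile, was 217 to 305 on LPS arrays and 146 to 171 on saline arrays. Most of that sum came from Ms4a4c, which changed by 0.37 ± 0.10 (adjusted p = 0.0171, limma), while Ly6c2, the defining marker of inflammatory monocytes, changed by 2.11 ± 0.20 (adjusted p = 0.000427, limma). Of the 13 neutrophil markers 3 were higher and 1 lower, with sums of 262 to 396 on LPS arrays and 193 to 282 on saline arrays that came mostly from S100a8, S100a9 and Csf3r. Their part in the changes of Trem3, Treml2, Treml4 and the dimmer Trem1 probe was not tested. Of the 5 platelet markers tested 4 were lower, with sums of 117 to 154 on LPS arrays and 205 to 266 on saline arrays, while the platelet markers Gp1ba and Tubb1 were not well above background on any array. Nearly all of the platelet sum was the signal of Pf4, at 7.01 ± 0.17 on LPS arrays and 7.79 ± 0.17 on saline arrays on the log2 scale (SD, n = 4 each). Itga2b and Gp6, also on the platelet list, did not pass the filter on dim probes. Which cells gave the Pf4 signal was not tested, and neither was the part of the platelet markers in the lower Treml1. Of 7 border macrophage markers 3 were lower and none higher, with sums of 217 to 305 on LPS arrays and 298 to 380 on saline arrays. Microglial markers summed to 1558 to 1844 on LPS arrays and 1478 to 1806 on saline arrays, with 1 of 10 higher and 4 lower, and their part in the lower Trem2 was not tested either.

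Tyrobp, the DAP12 adaptor, measured 7.83, 7.73, 7.51 and 7.66 on the LPS arrays, against 8.07, 7.97, 7.62 and 7.72 on the saline arrays. The groups overlapped, and the change of -0.16 ± 0.12 did not pass the test (adjusted p = 0.288, limma). The scaling decided this call. The change was -0.32 (adjusted p = 0.0209) with the 75th percentile taken only over probes that every array measured well above background, -0.45 (adjusted p = 0.000948) with quantile normalization, and 0.05 (adjusted p = 0.833) with array medians.

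Hcst, the DAP10 adaptor, measured 3.06 to 3.33 on the LPS arrays, against 2.84 to 3.30 on the saline arrays. The change was 0.09 ± 0.12 (adjusted p = 0.521, limma), and the groups overlapped. All 4 Hcst probes gave small changes, of 0.08 to 0.17, and none passed the test. They are not 4 independent readings, since a pair of them share 53 bases and the other pair share 26.

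**Figure D2:**
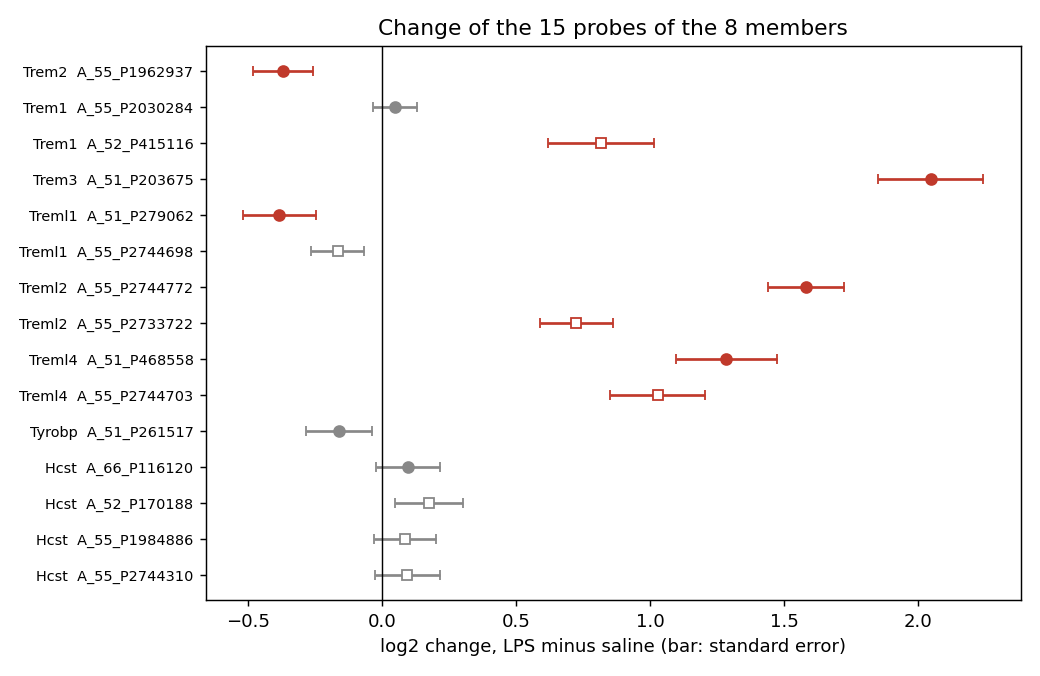
Log2 change, LPS minus saline, with its standard error, of each of the 15 probes (rows, by gene and probe name); filled circles are the brightest probe of a gene, open squares its other probes, and red marks adjusted p under 0.05. Trem1 has a brighter probe at 0.05 and a dimmer one at 0.82, and the second probes of Treml2 and Treml4 are also above 0.

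By probe, 8 of the 15 passed the test and 7 had groups that did not overlap, against 47.5% and 43.3% of all 35494 probes tested. The plot of changes by probe shows that probes of Treml2, Treml4 and Hcst went the same way within each gene. Those of Treml1 differed in call, and so did those of Trem1.

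Whether each of the other genes changed by more or less than the adaptor Tyrobp was addressed by subtracting the log2 signal of Tyrobp on the same array. This difference does not depend on how arrays are scaled by a constant. Hcst is itself an adaptor, and which of the receptors signal through Tyrobp was not tested. Relative to Tyrobp, 4 of the other 7 genes were higher and none was lower, where 46.4% of all genes passed, 38.3% higher and 8.05% lower. Trem3 was higher by 2.21 ± 0.21 (adjusted p = 0.000123), Treml2 by 1.74 ± 0.10 (adjusted p = 6.44e-05) and Treml4 by 1.45 ± 0.13 (adjusted p = 9.93e-05), all from limma. Hcst was higher by 0.26 ± 0.08 (adjusted p = 0.0326, limma). The Hcst call was lost without saline 1, 2 or 3 or without LPS 2, 3 or 4, with changes of 0.21 to 0.27.

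Trem2 relative to Tyrobp measured -0.10, 0.00, 0.10 and -0.16 on the LPS arrays, against 0.11, 0.17, 0.13 and 0.27 on the saline arrays. The groups did not overlap, yet the change of -0.21 ± 0.08 missed the threshold (adjusted p = 0.0714, limma). It passed without LPS 3 (-0.25, adjusted p = 0.0406) and with normexp background correction (-0.22, adjusted p = 0.0404). Trem1 by its brighter probe (0.21 ± 0.16, adjusted p = 0.317) and Treml1 (-0.22 ± 0.16, adjusted p = 0.300) did not pass in the same limma fit.

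Trem1 and Trem2 are often set against each other as amplifying and damping receptors. The log2 signal of Trem1 minus that of Trem2 was higher on LPS arrays by 0.42, averaging -5.17 ± 0.17 on LPS arrays and -5.59 ± 0.23 on saline arrays (SD, n = 4 each, exact two-sided permutation p = 0.0286). That is the smallest p that the 70 splits of 8 arrays allow. With the dimmer Trem1 probe the difference was 1.19 (exact permutation p = 0.0286). Without saline 1, saline 2, LPS 1, LPS 2 or LPS 3 the exact permutation p with the brighter probe was 0.0571, and without LPS 4 it was 0.0857. The size of this difference depended on the Trem1 probe, while its direction did not. Both versions subtract the same Trem2 values, so their shared direction is not an independent reading. With the brighter probe the change of Trem1 itself was 0.05, against -0.37 for Trem2.

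The 6 receptor genes lie together on chromosome 17, in the order Trem1, Trem3, Treml4, Treml2, B430306N03Rik, Trem2, Treml1 in the RefSeq table of assembly GRCm38.p6. Higher and lower genes did not alternate along this order. Trem3, Treml4 and Treml2 adjoin each other, and Trem2 and Treml1 adjoin each other. B430306N03Rik, listed with the synonym Treml6, lies between these groups and was higher by 1.73 ± 0.12 (adjusted p = 0.000139, limma), averaging 3.12 ± 0.23 on LPS arrays and 1.38 ± 0.09 on saline arrays (SD, n = 4 each). It was named after its value was seen. Beyond Treml1, Nfya, a subunit of a CCAAT-binding transcription factor, was lower by a change of -0.29 ± 0.08 (adjusted p = 0.0166, limma). Array medians (-0.070, adjusted p = 0.706) and leaving out LPS 2 (-0.26, adjusted p = 0.0530) lost the Nfya call. On the other side, A530064D06Rik has 1 probe, which did not pass the filter.

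**Figure D3:**
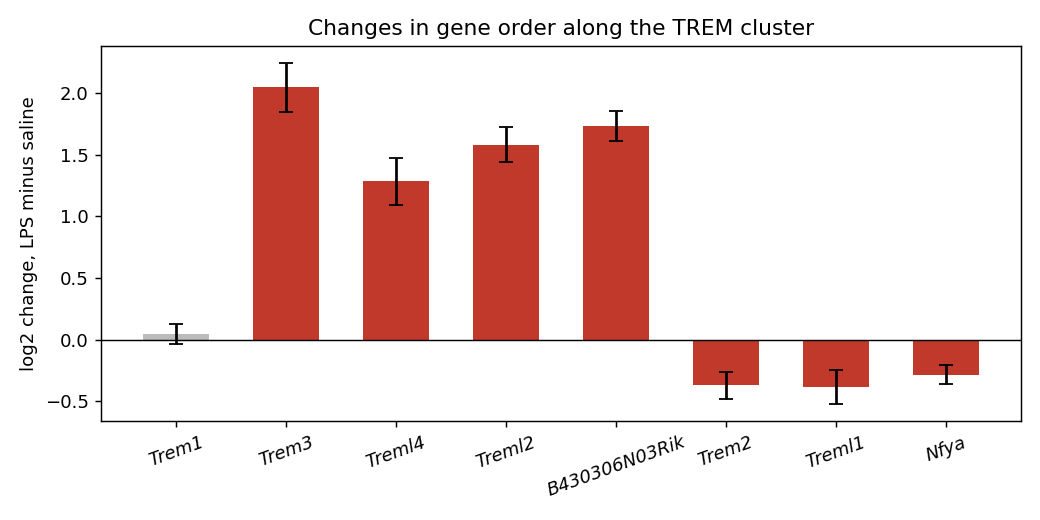
Log2 change, LPS minus saline (y axis), of the genes of the TREM cluster on chromosome 17 and its neighbour Nfya, in gene order and not to genomic scale; bars start at 0, error lines are standard errors, and red marks adjusted p under 0.05. The 4 higher genes Trem3, Treml4, Treml2 and B430306N03Rik stand next to each other, followed by the lower genes Trem2, Treml1 and Nfya.

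Tyrobp and Hcst lie beside each other on chromosome 7, with 129 bases between the genes in the same table. Their flanking genes Lrfn3 (-0.05 ± 0.09, adjusted p = 0.659) and Nfkbid (-0.13 ± 0.09, adjusted p = 0.260) did not pass the limma test either. As with Tyrobp, the scaling decided the Nfkbid call. Its limma change was -0.48 (adjusted p = 0.00166) with quantile normalization and -0.29 (adjusted p = 0.0141) with the 75th percentile over probes bright on every array.

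RefSeq promoters of assembly GRCm38.p6 were found for 5 of the 8 genes, Trem1, Trem2, Treml1, Treml4 and Hcst. Those of Trem2 and Treml4 are shown because these cluster genes went opposite ways. Each is the 250 bases before the gene's start, at chr17:48346151-48346400 for Trem2 and chr17:48264045-48264294 for Treml4, both on the plus strand. Capitals mark a match, on either strand, to any of 5 motifs, none of which overlapped another in these windows. They are AGGAAGT for ETS factors, TGANTCA for AP-1, TTGCNNAA for C/EBP, GAAA and GAAA separated by any 2 bases for interferon-responsive factors, and GGGA and TTCC separated by any 2 bases for NF-kB, each a simple form of the known site.
Trem2 promoter: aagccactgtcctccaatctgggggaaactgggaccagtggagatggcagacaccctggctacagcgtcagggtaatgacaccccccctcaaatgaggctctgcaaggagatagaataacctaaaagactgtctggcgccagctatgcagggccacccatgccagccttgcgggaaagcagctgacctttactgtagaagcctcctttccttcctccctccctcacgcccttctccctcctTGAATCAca
Treml4 promoter: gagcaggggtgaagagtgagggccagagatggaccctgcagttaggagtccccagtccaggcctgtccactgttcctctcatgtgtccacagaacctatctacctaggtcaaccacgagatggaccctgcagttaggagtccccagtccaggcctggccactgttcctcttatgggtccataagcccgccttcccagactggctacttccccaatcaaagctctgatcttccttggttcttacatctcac

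The Trem2 window held 1 match to TGANTCA, which 6.75% of 32851 promoter windows of the same length hold, and the Treml4 window held no match. The motif AGGAAGT occurred once in the Trem1 window and at 2 places in the Hcst window, against 7.69% of all windows with at least 1 match. The interferon, NF-kB and C/EBP motifs, held by 2.98%, 1.21% and 9.56% of windows, matched in none of the 5 members' windows.

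Genes whose pattern over the 8 arrays was most like that of Trem2 were Pik3cg, Abhd4 and Selenop. The root mean square difference between their centred log2 values and those of Trem2 was 0.034, 0.043 and 0.044, the smallest among 15667 genes well above background on all 8 arrays. Pik3cg encodes a catalytic subunit of phosphoinositide 3-kinase and changed by -0.38 ± 0.10 (adjusted p = 0.0155, limma). With array medians Pik3cg (-0.16, adjusted p = 0.446), Abhd4 and Selenop were not called, as Trem2 was not. For Tyrobp they were Snapin, Mthfsl and Tbc1d16, with differences of 0.032 to 0.037, none of which passed the test. For Trem1 they were Tmem80, Mup3 and Atrn, and for Hcst Manbal, Gm5617 and Tgfb1. This likeness is a description, since the arrays share their scaling.

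Of 98 tested genes in 7 lists around the TREM pathway, 36 were higher after LPS and 22 lower. Over all genes 27.8% were higher and 21.5% lower, and the list counts below and the marker counts above stand against these shares. The receptors that share the adaptors moved most often upwards. Of 10 other receptors that couple to DAP12 or DAP10, 6 were higher and 1 lower, with a median change of 0.72, against 27.8% higher, 21.5% lower and a median of 0.02 over all genes. Pilrb2 (2.55 ± 0.19, adjusted p = 0.000167) and Pilrb1 (2.26 ± 0.15, adjusted p = 0.000115), paired activating receptors, and Sirpb1c (2.23 ± 0.15, adjusted p = 0.000139), a signal regulatory protein, had the largest limma changes. The Pilrb and Sirpb1 genes each have close paralogues, and whether the probes tell them apart was not tested. With normexp the change of Pilrb2 was 1.55. Siglech, a microglial sialic acid receptor that couples to DAP12, was lower by a change of -0.22 ± 0.08 (adjusted p = 0.0419, limma). Leaving out any single array other than saline 1 or LPS 3 lost that call, as did array medians (-0.0048, adjusted p = 0.978), while averaging its probes gave -1.04 (adjusted p = 0.00119).

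Among 6 other ITAM adaptors tested, 2 were higher, with a median change of 0.46. Fcer1g, the Fc receptor gamma chain, measured 8.46 to 8.50 on 3 LPS arrays and 8.19 on LPS 3, and changed by 0.50 ± 0.12 (adjusted p = 0.0109, limma). With the median signal as a covariate its call was lost (0.25, adjusted p = 0.0543). The count of higher adaptors was 4 without LPS 3. It was 1 with normexp, with the 75th percentile over probes bright on every array, and without saline 2, saline 3, LPS 1, LPS 2 or LPS 4.

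The 38 signalling genes below Tyrobp and Hcst went both ways, with 13 higher, 9 lower and a median change of 0.11. These counts were not far from the shares over all genes, 27.8% higher and 21.5% lower. The Src family kinase Fgr (1.83 ± 0.16, adjusted p = 0.000335) and the adaptor Lat2 (1.33 ± 0.14, adjusted p = 0.000516) were among the largest increases in the limma fit. Zap70, the Syk relative of T cells (-1.04 ± 0.20, adjusted p = 0.00395), Plcg1, a phospholipase C (-0.62 ± 0.08, adjusted p = 0.000989), and Pik3ca, a catalytic subunit of phosphoinositide 3-kinase (-0.59 ± 0.12, adjusted p = 0.00525), had the largest decreases. The count of lower genes was 2 with array medians, where Pik3ca was not called (-0.38, adjusted p = 0.0965), and 17 with quantile normalization.

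Of 13 genes that restrain ITAM signalling, 5 were higher and 1 lower, with a median change of 0.11. Pilra, an inhibitory receptor (1.83 ± 0.17, adjusted p = 0.000370), and the docking proteins Dok3 (0.89 ± 0.11, adjusted p = 0.000976) and Dok2 (0.76 ± 0.11, adjusted p = 0.00132) were higher in the limma fit. Sirpa, the inhibitory receptor for CD47, was lower by a change of -0.50 ± 0.09 (adjusted p = 0.00377, limma). With array medians that call was lost (-0.28, adjusted p = 0.168), and the count of lower genes ran from 0 with that scaling to 4 with quantile normalization.

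Of 9 TREM ligands and partners 1 was higher and 2 lower, with a median of 0.01. Hspd1, a heat shock protein reported as a ligand of TREM2, was higher by 1.04 ± 0.12 (adjusted p = 0.000720, limma). Sema6d, a semaphorin whose signal passes through plexin A1 and Trem2, changed by -1.07 ± 0.16 (adjusted p = 0.00149) and Il34, a ligand of Csf1r, had 0.499 of its saline signal (adjusted p = 0.000865) in the same fit. The count of higher genes was 2 with array medians or without LPS 1, and that of lower genes was 4 with quantile normalization. Il34 was dim, averaging -1.70 on LPS arrays and -0.69 on saline arrays. Markers of other brain cells were also lower, 4 of 5 for astrocytes, 4 of 5 for the oligodendrocyte lineage, 3 of 5 for endothelium and 1 of 5 for neurons. None of these markers was higher. The part of such cells in the signals of Sema6d and Il34 was not tested.

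Genes of the proteases and protease complex subunits that release and cleave TREM2 were higher in 6 of 8 cases and lower in 1, with a median of 0.37. Psen2 (0.66 ± 0.09, adjusted p = 0.00122) and Aph1a (0.64 ± 0.13, adjusted p = 0.00550), subunits of gamma-secretase, were higher in the limma fit, and Aph1b, an alternative subunit, was lower by a change of -0.92 ± 0.20 (adjusted p = 0.00710), a call lost with the median signal as a covariate (-0.52, adjusted p = 0.0645). The count of higher genes was 3 with quantile normalization and 3 without LPS 1, 2 or 4.

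Genes that depend on Trem2 in microglia of other mouse models went lower more often than higher, 8 against 3 of 14, with a median of -0.51. Gpnmb, a glycoprotein of lysosomes (-2.86 ± 0.41, adjusted p = 0.00137), Csf1, a growth factor of macrophages (-1.84 ± 0.24, adjusted p = 0.00102), and Itgax, the integrin CD11c (-1.77 ± 0.32, adjusted p = 0.00304), had the largest decreases in the limma fit. Lilrb4a, an inhibitory receptor, was higher by 0.90 ± 0.13 (adjusted p = 0.00144, limma) and Axl, a receptor for dying cells, by 0.81 ± 0.10 (adjusted p = 0.000955, limma).

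**Figure D4:**
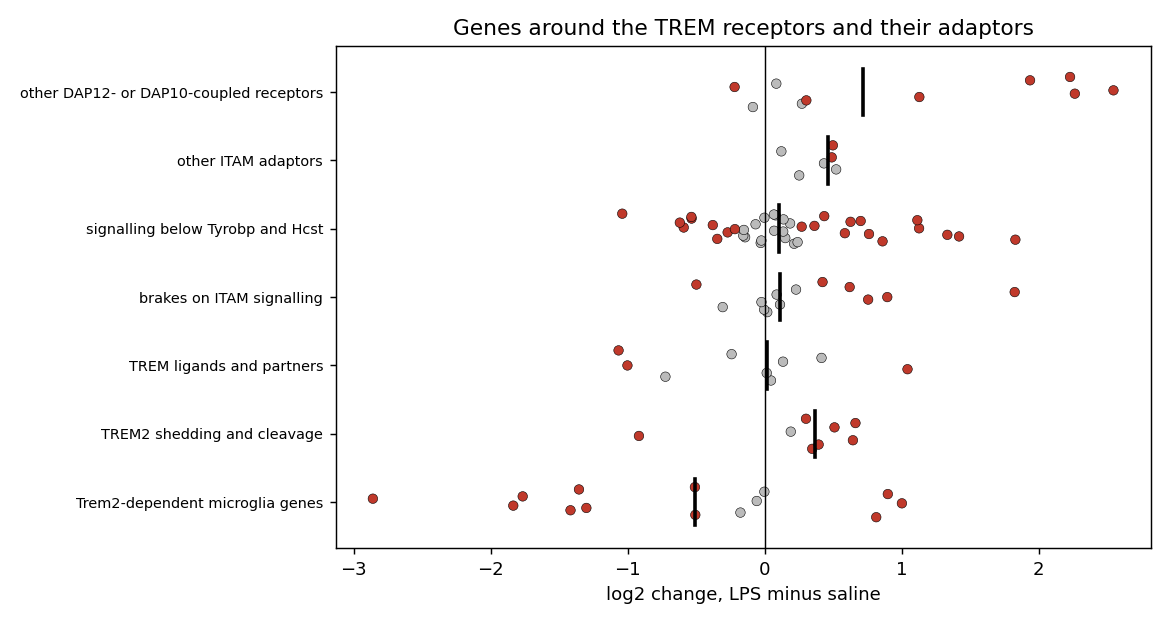
Log2 change, LPS minus saline (x axis), of each tested gene of the 7 lists around the TREM pathway (rows); red points have adjusted p under 0.05 and black lines are list medians. The median is highest in the other DAP12- or DAP10-coupled receptors, at 0.72, and lowest in the Trem2-dependent microglia genes, at -0.51.

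The plot of changes under several scalings sets the results side by side. Trem3, Treml2 and Treml4 passed under all 5 settings shown, Trem1 by its brighter probe and Hcst under none, and the calls of Trem2, Treml1 and Tyrobp moved with the setting.

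**Figure D5:**
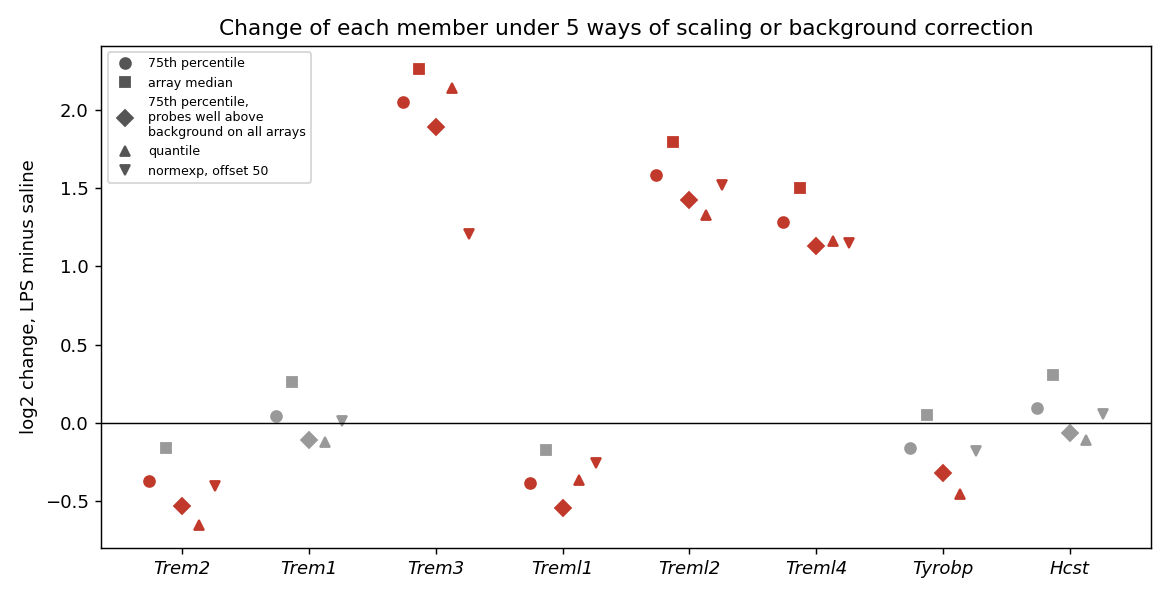
Log2 change, LPS minus saline (y axis), of the 8 genes under 5 ways of scaling or background correction (symbols); red marks adjusted p under 0.05. Trem3 ranges from 1.20 to 2.26, while Trem2 ranges from -0.65 to -0.16 and is not past the threshold with array medians.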

How the data were processed

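The scanner files, as deposited, hold spot intensity values from Agilent Feature Extraction 12.0.3.1, per the submitters' processing notes. Background had already been subtracted from the processed signal, per the file headers. The value table, deposited by the authors on a log2 scale, served only as an alternative. Set against the scanner intensities it runs in the same direction and is shifted by array and centred by probe, and its column medians were -0.07 to 0.08.

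Control and outlier spots were left out, and log2 processed signals were set relative to the 75th percentile of their array. A probe needed a signal well above background on 4 or more of the 8 arrays (35494 of 56605 passed), and a gene was read by its brightest probe. LPS and saline were compared with limma 3.58.1 in R 4.3.3 and Benjamini-Hochberg adjustment, and the code was tested on simulated data. The number of arrays limits the precision, and the choice of scaling moves the values further.

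The 8 genes and all lists were chosen with earlier results of these data known. From each list, up to 3 higher and 3 lower genes were named. These had the largest changes among called genes without overlap of the groups and with a signal well above background on 3 or more arrays per group, or, where none passed, were the 2 brightest. Of these, 2 list genes are not reported here. The 3 genes of most similar pattern and the nearest neighbours were named too. Other scalings, background corrections, filters, probe choices, array weights, slide positions and omitted arrays were tried.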

Additional observations from a re-analysis of the deposited data

Results flagged for a closer look

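In groups of 4 arrays, a value was singled out when its gap to the nearest other array exceeded 0.829 of the group's range, which chance does in about 1 in 20 groups. Of 58 values checked in 2 groups each, 9 were singled out.

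LPS 3 was the array in 5 of them. Treml4 measured 1.94 on LPS 3, against 2.48 to 2.59 on the other LPS arrays. The second Treml2 probe measured -1.10 there, against -0.79 to -0.73. Dok3 was at 3.24, against 3.54 to 3.58. Fcer1g was at 8.19, against 8.46 to 8.50. Manbal, one of the genes most like Hcst, was at 1.91, against 2.14 to 2.15. LPS 3 was also the brightest of its group, with a median processed signal of 17.3 against 11.7 to 13.8.

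Other arrays gave the rest. Lilrb4a measured 5.79 on LPS 4, against 5.22 to 5.32 on the other LPS arrays. Atrn was at 1.14 on LPS 1, against 1.23 to 1.25. Dok2 was at 3.61 on saline 2, where the other saline arrays all lay at 3.35. Siglech was at 7.50 on saline 1, against 7.63 to 7.64.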

How the results depend on the processing

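The 4 arrays per group limit what could be called, and the calls of Trem2 and Treml1 lay near the threshold. Trem3, Treml2 and Treml4 stayed higher and past the threshold under all 22 alternatives, at 1.20 to 2.26, 1.15 to 1.80 and 0.90 to 1.51. Replicate numbers here only follow the accession order and pair no samples. Each slide column held 1 LPS and 1 saline array, and with it as a block 13620 genes changed and no member was called differently (Trem2 adjusted p = 0.0118, Treml1 0.0159, Tyrobp 0.0650). Why calls moved was not tested.

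With array medians, 6994 genes were higher and 2619 lower, against 6267 and 4837, no member and 11 pathway genes were lower, and Trem2 (-0.16), Treml1 (-0.17) and Tyrobp (0.053) were not called. With the 75th percentile over probes that every array measured well above background (median change of all genes -0.13), 4850 genes were higher and 7243 lower, Tyrobp was called (-0.32), and Trem1 (-0.11) and Hcst (-0.060) turned sign. With quantile normalization, 38 pathway genes were lower, Tyrobp was called (-0.45), and Trem1 (-0.12), Hcst (-0.11) and Treml1 relative to Tyrobp (0.090) turned sign. With normexp, Trem2 relative to Tyrobp was called (-0.22). Without the filter (-0.38), with probes averaged (-0.28), array weights (-0.24) or the slide row as a block (-0.38), Treml1 lost its call, which left 1 member lower. Averaging also called Trem1 (0.43), as did its dimmer probe, chosen after seeing the data (0.82, and 0.98 relative to Tyrobp). Trem1 was -0.018 with array weights. With the median signal as a covariate, 4132 genes were higher, Tyrobp was called (-0.42), Treml1 was not (-0.40) and Hcst was -0.13.

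Leaving out each array in turn gave 0 to 2 lower members, Trem2 at -0.46 to -0.32, Treml1 at -0.48 to -0.30, Hcst at -0.0011 to 0.15, Hcst relative to Tyrobp at 0.21 to 0.30, Trem2 relative to Tyrobp at -0.25 to -0.17, and Trem1 minus Trem2 at 0.32 to 0.49, with exact permutation p-values of 0.0286 to 0.0857 and the call kept only when saline 3 or saline 4 was the array left out.

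Signs also turned, without a call, for Lrfn3 (0.17), Nfkbid (0.081), Snapin (0.0024), Mthfsl (0.025) and Tbc1d16 (0.066) with array medians. They turned for Tmem80 (-0.082), Mup3 (-0.098), Atrn (-0.12), Manbal (-0.022) and Gm5617 (-0.072) with the 75th percentile over bright probes, and for Atrn (-0.049), Manbal (-0.016), Gm5617 (-0.11) and Tgfb1 (-0.024) with quantile normalization. They turned for Manbal (-0.076), Gm5617 (-0.15) and Tgfb1 (-0.040) with the covariate, and Gm5617 ranged from -0.013 to 0.14 when each array was left out. Nfkbid, Snapin, Mthfsl and Tbc1d16 were called lower with the 75th percentile over bright probes and with quantile normalization, at -0.48 to -0.29. Snapin (-0.45), Mthfsl (-0.43) and Tbc1d16 (-0.38) were also called lower with the covariate. So were Snapin (-0.21) and Mthfsl (-0.19) with the slide column as a block, and Tbc1d16 (-0.34) with probes averaged.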
